A study of Mus musculus with 24 samples.

Results

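The promoters of 10 mouse genes known for a methylation imprint from the mother were followed through 12 libraries of whole-genome bisulfite sequencing with prior oxidation, so that 5-hydroxymethylcytosine is not read as methylated. The genes were Peg3, Peg10, Mest, Plagl1, Nnat, Grb10, Impact, Airn, Gnas and Zdbf2, chosen by name. Each was measured at whichever of its gene ends (build mm10) had more CpGs within 1000 bp in each direction, called its gene end here, and its level is the share of methylated among all calls of that window. All 10 were among the 20325 gene ends that could be tested, out of 21528 in all. The cells were mouse induced pluripotent stem (iPS) cells grown over feeder cells, and embryoid bodies (EBs), aggregates in which such cells differentiate, made from them by hanging drops.

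The cells compared were 2 iPS clones, N5 and N9, each with miR-203, a microRNA, knocked in under doxycycline control, and each clone is a single line. They were set against a wild-type iPS line. Each was sampled at t=0 before doxycycline, at day 10 (5 days after a doxycycline pulse of 5 days), at day 25 (20 days after it) and as EBs at day 32. The labels of the wild-type cells at day 10 and day 25 also place them after doxycycline, while the label of the wild-type EBs does not mention it and gives 10 days of differentiation where the design gives 7. Every stage thus had 2 clone libraries and 1 wild-type library. The wild type was deposited as a pair of columns per stage, taken here as lanes of a single library. Clone libraries held 118486877 to 191102862 calls at CpGs and wild-type libraries 102729088 to 136927277, a mean of 4.7 to 8.74 calls per CpG over the 12 libraries. Nothing in the labels says that the clones were cultured more than once per stage, so the tests measure the spread between the clones only.

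At an imprinted locus the parental copies carry different methylation, laid down in the egg or the sperm and kept through the genome-wide remethylation of the early embryo. At a maternally methylated control region the copy from the mother is methylated and the copy from the father is not, so that cells with intact imprints give an intermediate level. Reprogramming and long culture of pluripotent stem cells are known to erode such imprints. The mark usually sits on a CpG-rich promoter that is active from the father's copy.

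The sequences of RefSeq promoters (GRCm38.p6, which shares its coordinates with mm10) show what was read at the starts on which the results turn. The promoter table matched 8 of the 10 genes with 13 distinct starts, where starts of a gene within 100 bp of each other count once. Each line gives the 250 bases before a start, 5′ to 3′ on the gene's strand, with every CpG in capitals. Shown are the start that Peg3 uses beside Usp29 (chr7:6730420-6730669, minus strand), the start of the long Zdbf2 transcript (chr1:63200108-63200357, plus strand), the upstream and the internal start of Mest (chr6:30733256-30733505 and chr6:30737800-30738049, plus strand), the first start in the Gnas locus (chr2:174284070-174284319, plus strand) and the start of Airn (chr17:12741061-12741310, plus strand).
Peg3: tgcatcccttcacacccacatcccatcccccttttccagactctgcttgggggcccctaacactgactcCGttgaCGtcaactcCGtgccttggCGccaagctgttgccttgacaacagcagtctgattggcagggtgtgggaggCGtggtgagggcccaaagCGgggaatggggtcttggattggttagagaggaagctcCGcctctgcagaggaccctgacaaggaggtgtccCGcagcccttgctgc
Zdbf2: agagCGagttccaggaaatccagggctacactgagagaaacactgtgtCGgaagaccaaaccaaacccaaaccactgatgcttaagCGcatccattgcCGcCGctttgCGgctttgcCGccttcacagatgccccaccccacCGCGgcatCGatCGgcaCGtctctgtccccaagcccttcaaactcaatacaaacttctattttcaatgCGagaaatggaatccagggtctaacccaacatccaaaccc
Mest upstream: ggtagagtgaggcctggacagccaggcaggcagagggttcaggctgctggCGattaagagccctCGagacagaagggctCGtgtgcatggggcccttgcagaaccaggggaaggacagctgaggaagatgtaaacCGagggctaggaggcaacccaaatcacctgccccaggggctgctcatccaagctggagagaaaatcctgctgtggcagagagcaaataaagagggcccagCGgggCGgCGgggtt
Mest internal: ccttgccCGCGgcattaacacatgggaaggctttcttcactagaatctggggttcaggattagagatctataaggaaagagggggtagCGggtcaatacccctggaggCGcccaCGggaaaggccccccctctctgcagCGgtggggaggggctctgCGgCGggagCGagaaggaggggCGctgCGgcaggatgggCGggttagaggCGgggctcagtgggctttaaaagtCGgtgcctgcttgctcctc
Gnas: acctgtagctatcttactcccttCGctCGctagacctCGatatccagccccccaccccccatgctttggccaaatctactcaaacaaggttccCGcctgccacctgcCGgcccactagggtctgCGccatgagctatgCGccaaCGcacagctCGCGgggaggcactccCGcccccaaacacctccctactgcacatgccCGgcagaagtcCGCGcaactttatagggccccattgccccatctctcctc
Airn: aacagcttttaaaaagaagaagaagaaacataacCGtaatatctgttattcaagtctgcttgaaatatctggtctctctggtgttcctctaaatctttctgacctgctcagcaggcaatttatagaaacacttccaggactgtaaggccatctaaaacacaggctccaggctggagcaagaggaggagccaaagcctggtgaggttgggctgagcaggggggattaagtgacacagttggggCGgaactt
The Peg3 stretch holds 8 CpGs, the Zdbf2 stretch 13, the Gnas stretch 14 and the Airn stretch 2, while the upstream start of Mest has 7 and its internal start 14. The motif TGCCGC, the letters that the imprint-keeping protein ZFP57 binds when methylated, was searched on both strands in the 300 bases from 250 before to 50 after a start. It stood in 5 of the 13 member promoters, or 38.5%, and in 11.6% of all 31405 RefSeq promoters counted the same way. The motif holds a CpG, and the promoters were not matched for CpG number. The 5 include the main start of Grb10 (40 CpGs in its 250 bases), which does not carry the imprint. The Zdbf2 start held 3 matches and the internal start of Mest held 2.

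Some facts of the libraries moved with the stages. Methylation over all CpG calls was 64.7%, 60.1%, 48.4% and 71.8% in N5, 64.9%, 60.8%, 47.8% and 71.1% in N9, and 60.7%, 61.4%, 61.1% and 69.6% in the wild type (t=0, day 10, day 25, EBs). Coverage of chromosome X over chromosome 5 was 0.52, 0.695, 0.594 and 0.642 in N5, 0.523, 0.694, 0.618 and 0.511 in N9, and 0.658, 0.668, 0.676 and 0.606 in the wild type (t=0, day 10, day 25, EBs). Coverage of the start of chromosome Y over chromosome 5 came to 0.0367 (N5) and 0.0378 (N9) at t=0. It was 0.0122 (N5) and 0.00997 (N9) at day 25, and 0.000256 to 0.00173 in the remaining clone libraries and the wild type. The titles place N5 at t=0, day 25 and EBs on another flow cell than the remaining 9 libraries. Of 10 fibroblast marker ends, for the feeder cells, 2 fell from t=0 to day 25 in the clones and 9 rose to EBs, and of 8 pluripotency marker ends 4 fell and 5 rose, where 40.2% of all tested ends fell and 74.6% rose. The part of these in the results was not tested. In bulk DNA, fewer cells with a methylated copy and partial methylation in every cell cannot be told apart.

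The gene ends were for the most part methylated below an intermediate level, in the wild type as well. Over 10 genes and 12 libraries, 33 of 120 values (27.5%) lay between 30% and 70%, against 19% of the values of all tested gene ends, and 0 of 10 genes lay there in every library. Among ends with at least 50 CpGs, 26 of 108 member values (24.1%) lay in that band, against 2.78% of the values of all such ends, a comparison chosen after values had been seen. Member ends were thus more often in the band than CpG-rich ends at large, as a description, and still mostly under it. The median member stood at 26.2%, 16.4%, 17.9% and 30% in N5 and 22.9%, 13.9%, 15.5% and 18.9% in N9 (t=0, day 10, day 25, EBs). In the wild type the median member stood at 22.5%, 23.8%, 26.8% and 29.3% at the same stages. The plot of levels by library shows all 120 values.

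**Figure D1:**
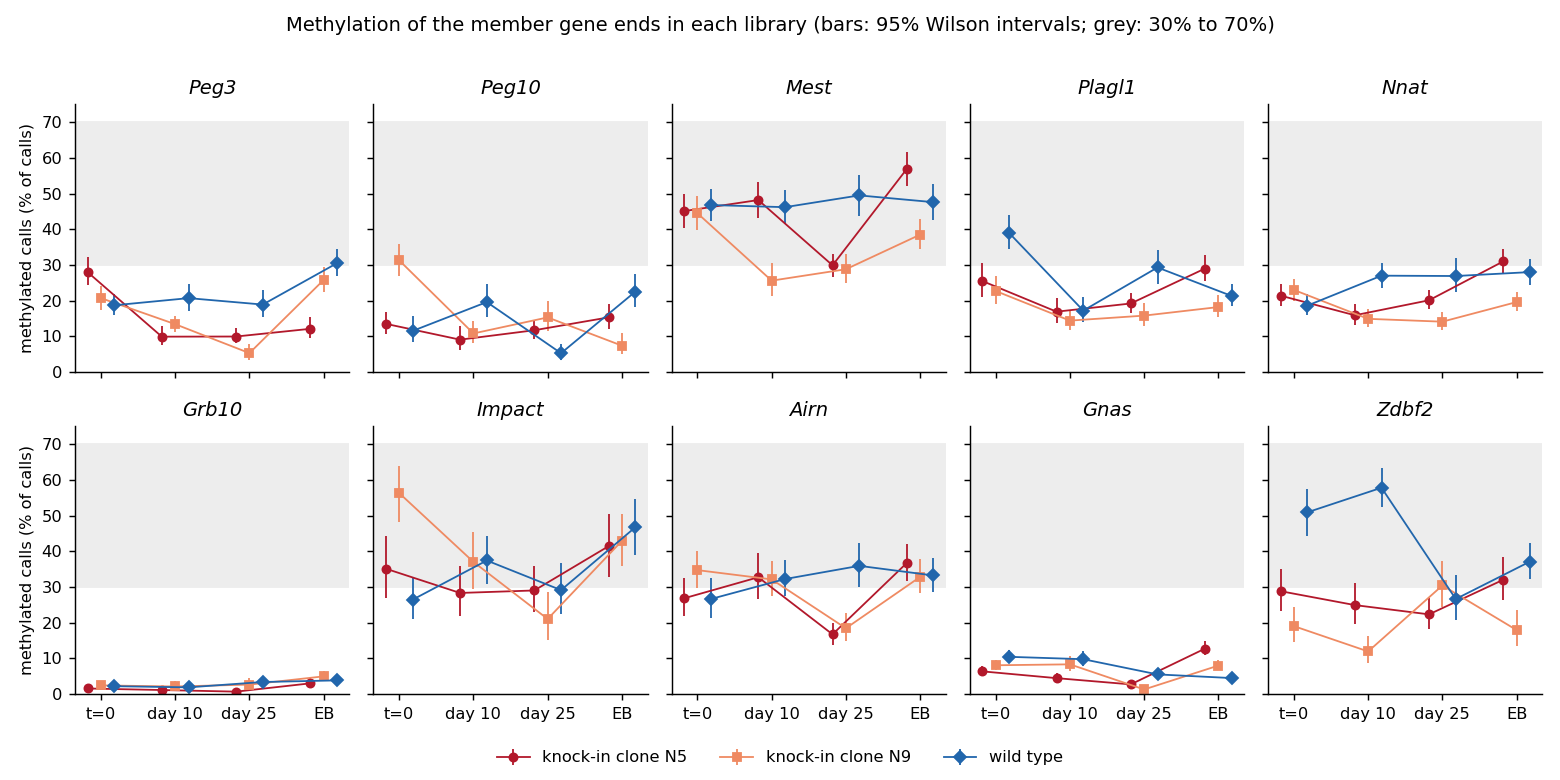
Share of methylated calls (percent, y axis) at the 10 member gene ends by stage (x axis), with 1 point per library for the knock-in clones N5 and N9 and the wild type and 95% Wilson intervals as bars. Most points sit below the grey band from 30% to 70%, Mest lies in the band in 9 of 12 libraries, and Zdbf2 of the wild type stands above both clones at t=0, day 10 and in EBs.

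The window rule caught different parts of these loci. At Peg3, Peg10, Plagl1, Nnat, Airn and Zdbf2 the window covers the start that is known as maternally methylated. At Grb10 it covers the main start (chr11:12036428-12038428, 220 CpGs), which is unmethylated on both parental copies, and not the island inside the gene that carries the imprint. At Gnas it covers the start of the Nesp transcript (chr2:174283320-174285320, 108 CpGs), which in mouse is methylated on the copy from the father. At Mest it covers an upstream start (chr6:30732506-30734506, 50 CpGs) and at Impact a far upstream gene end with 22 CpGs (chr18:12953690-12955690). For these 4 genes the label of a maternally methylated promoter therefore does not describe the window, and the CpG-dense stretches described further on reach the imprinted regions. All counts and medians over the 10 members include these 4 windows. Of the 33 member values between 30% and 70%, Mest and Impact gave 9 and 7, and Airn and Zdbf2 gave 8 and 5.

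Peg3 encodes a zinc finger protein of growth and maternal behaviour and shares its start with Usp29. Its end (chr7:6729462-6731462, 89 CpGs) read 28.0%, 9.9%, 9.94% and 12.1% in N5 and 20.7%, 13.4%, 5.29% and 25.8% in N9 (t=0, day 10, day 25, EBs). Wild-type cells read 18.7%, 20.7%, 18.9% and 30.5% at these stages. Both clones were lower at day 10 and day 25 than at t=0, and lower than the wild type at those stages. Peg10, a retrotransposon-derived gene needed in the placenta, starts back to back with Sgce (chr6:4746306-4748306, 128 CpGs). It read 13.5%, 9.06%, 11.7% and 15.3% in N5 and 31.3%, 10.8%, 15.3% and 7.38% in N9 (t=0, day 10, day 25, EBs), and 11.5%, 19.6%, 5.26% and 22.5% in the wild type. N9 at t=0 had the highest Peg10 value of the 12 libraries. The wild-type columns of Peg10 read 6.6% and 28% at day 10 and 30.7% and 19.6% in EBs, so single columns came close to it.

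Plagl1, a zinc finger transcription factor that restrains cell division, had its end at chr10:13089832-13091832 (110 CpGs). It read 25.5%, 16.9%, 19.2% and 29% in N5 and 22.7%, 14.4%, 15.8% and 18.2% in N9 (t=0, day 10, day 25, EBs), and 39.0%, 17.2%, 29.3% and 21.3% in the wild type. Wild-type cells were above both clones at t=0, day 10 and day 25, and between them in EBs. The wild-type columns read 15.8% and 18.2% at day 10, on either side of N5, and 17.4% and 25.1% in EBs, on either side of N9. Nnat, which encodes the membrane proteolipid neuronatin, lies inside an intron of Blcap (chr2:157559078-157561078, 96 CpGs). It read 21.4%, 15.9%, 20.1% and 31.0% in N5 and 23.0%, 14.9%, 14.1% and 19.6% in N9 (t=0, day 10, day 25, EBs), and 18.6%, 27.0%, 26.9% and 28.0% in the wild type. At day 10 and day 25 both clones stood below the wild type with its columns summed. The wild-type columns read 15.8% and 31.2% at day 10 and 20.9% and 31.2% at day 25, the first close to N5 each time.

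Airn is a long noncoding RNA that silences Igf2r in cis on the father's copy. Its end (chr17:12740311-12742311, 75 CpGs) read 26.8%, 32.7%, 16.7% and 36.7% in N5 and 34.7%, 32.1%, 18.4% and 32.8% in N9 (t=0, day 10, day 25, EBs), and 26.6%, 32.2%, 35.9% and 33.2% in the wild type. The clone values at day 25 were the lowest of the 12. Zdbf2, a gene of postnatal growth, had the window at the start of its long transcript inside Gpr1 (chr1:63199358-63201358, 56 CpGs). It read 28.8%, 24.9%, 22.3% and 32.0% in N5 and 19%, 11.9%, 30.4% and 17.9% in N9 (t=0, day 10, day 25, EBs), and 50.9%, 57.8%, 26.6% and 37.1% in the wild type. Both clones lay below the wild type at t=0, day 10 and in EBs, and on either side of it at day 25. The wild-type columns read 25.2% and 45.5% in EBs, on either side of N5, and 44.8% and 16.2% at day 25.

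Mest encodes a protein of the hydrolase fold family. Its upstream end read 45.1%, 48.2%, 29.9% and 56.9% in N5 and 44.5%, 25.6%, 28.8% and 38.5% in N9 (t=0, day 10, day 25, EBs), and 46.8%, 46.2%, 49.5% and 47.6% in the wild type. This was the member most often in the band, in 9 of 12 libraries. Impact, which counters the kinase GCN2 in translation control, read 35.1%, 28.3%, 29% and 41.4% in N5 and 56.3%, 37.0%, 21.0% and 42.9% in N9 (t=0, day 10, day 25, EBs), and 26.4%, 37.4%, 29.1% and 46.7% in the wild type, on 114 to 216 calls a library. Gnas, the locus of the stimulatory G protein alpha subunit, read 6.32%, 4.42%, 2.67% and 12.7% in N5 and 8.03%, 8.29%, 1.25% and 7.94% in N9 (t=0, day 10, day 25, EBs), and 10.4%, 9.73%, 5.47% and 4.44% in the wild type. Grb10, an adaptor that damps insulin signalling and growth, lay between 0.637% and 4.92% in all 12 libraries. These 4 windows thus ran from nearly unmethylated (Grb10, Gnas) to intermediate (Mest, Impact).

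Changes between stages in the clones were tested with edgeR's quasi-likelihood test over all gene ends, with Benjamini-Hochberg adjustment and a threshold of 0.05. From t=0 to day 10, 0 of 10 members passed, against a background of 0.197% of all ends. At an unadjusted p under 0.05, edgeR gave 4 members and limma 1, and limma with adjustment gave 0. Peg3 stood 12.7 points lower on average at day 10 in the clones, but with an adjusted p of 0.229, and Peg10 12.5 points lower with 0.245 (edgeR).

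From t=0 to day 25, 5 of 10 members fell in the clones and 0 rose, where 40.2% of all ends fell, so the share of members is close to the background. The median member stood 7.76 points lower at day 25, against 3.90 points lower for the median of all tested ends. The ends were not matched for starting level, and an end that starts low has fewer points to lose. At t=0 the median member stood at 26.2% (N5) and 22.9% (N9), and the median of all tested ends at 10.1% in both clones. Peg3 fell by 16.8 points on average (7.61% ± 3.29 at day 25 and 24.4% ± 5.21 at t=0, SD, n = 2 clones, edgeR adjusted p = 0.00206). Its log2 odds of methylation changed by -1.92 ± 0.43 (SE). Gnas fell by 5.21 points, to 1.96% ± 1.01 at day 25 (adjusted p = 0.00281). Impact fell by 20.7 points (0.00972), Airn by 13.2 points (0.0151) and Mest by 15.5 points (0.0497), all by edgeR's adjusted p. Both clones moved the same way at these 5 genes. Of them, only Peg3 and Airn have windows at a start known as maternally methylated, and Gnas, Impact and Mest do not. The CpG-dense stretch at the Airn start, given further on, did not pass. The 5 members that did not pass were Peg10, Plagl1, Nnat and Grb10, with differences of -8.87, -6.65, -5.10 and -0.334 points, and Zdbf2, with 2.42 points.

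The calls of Peg3 and Gnas held under all 20 alternatives tried for each. Only 2 of 10 members passed without N9 at t=0, and 3 when either day 25 library was left out. Impact's log2 odds change was -0.68 or -1.07 when N9 at t=0 or N9 at day 25 was left out, and Airn's was -0.79 or -0.98 when N9 at t=0 or N5 at day 25 was left out, none of them past the threshold. Mest's call was lost whenever 1 of the 4 libraries was left out (log2 odds -0.95 and -0.98 without N5 or N9 at t=0, -1.0 and -0.93 without N5 or N9 at day 25).

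From day 25 to EBs, 6 of 10 members rose in the clones and 0 fell, against 74.6% of all ends that rose, a share below the background. The median member stood 8.27 points higher in EBs, against 7.22 for all ends. Here too the ends were not matched for starting level. Gnas rose by 8.35 points (10.3% ± 3.36 in EBs and 1.96% ± 1.01 at day 25, SD, n = 2 clones, edgeR adjusted p = 3.66e-05). Airn rose by 17.2 points, to 34.8% ± 2.78 (0.00098). Peg3 rose by 11.3 points (0.00548), Grb10 by 2.32 (0.0105), Impact by 17.1 (0.0123) and Mest by 18.3 (0.013), with edgeR's adjusted p in brackets. Plagl1, Nnat, Peg10 and Zdbf2 did not pass, with differences of 6.09, 8.19, -2.17 and -1.37 points. Their windows all cover a start known as maternally methylated. Of the 6 members that rose, only Peg3 and Airn have such a window. Whether members with such a window changed differently from the others was not tested. Plagl1 and Nnat did not pass but were higher in EBs than at day 25 in both clones. The differences in N5 and N9 were 9.78 and 2.4 points at Plagl1, and 10.9 and 5.5 points at Nnat. At Peg10 and Zdbf2 the clones moved apart, N5 by 3.55 and 9.76 points and N9 by -7.89 and -12.5 points. Without N9 at day 25 the count was 3 of 10. In that fit the log2 odds changes of Peg3 (1.03), Mest (1.08) and Impact (0.84) no longer passed. Other single libraries also decided calls, with log2 odds of 0.70 for Peg3 without N9 EBs, 0.59 for Mest without N5 EBs, 0.60 and 1.18 for Grb10 without N5 at day 25 or N9 EBs, and 1.07 for Impact without N9 EBs.

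**Figure D2:**
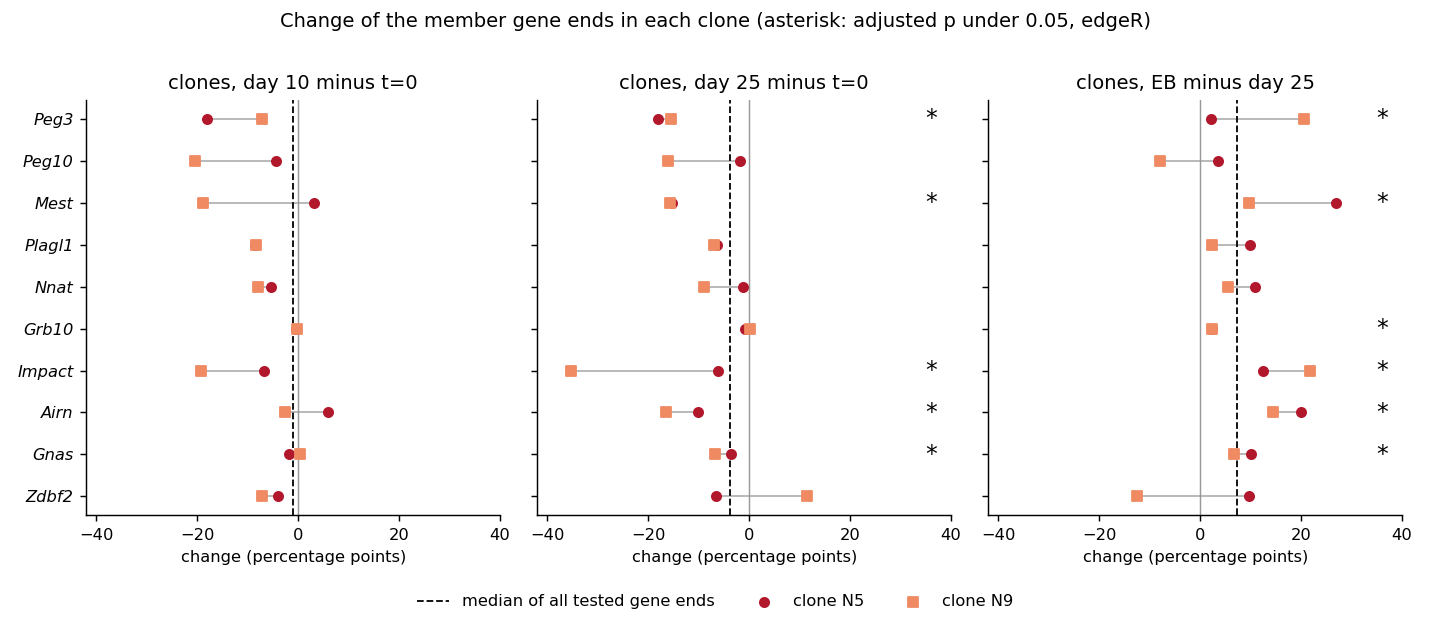
Change of each member gene end in percentage points (x axis) in clone N5 (circles) and clone N9 (squares), for day 10 minus t=0, day 25 minus t=0 and EB minus day 25. The dashed line is the median of all tested gene ends and an asterisk marks an edgeR adjusted p under 0.05, with 0, 5 and 6 members marked.

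Between t=0 and EBs, 0 of 10 members passed in the clones, against 8.95% of all ends. At an unadjusted p under 0.05, edgeR gave 2 and limma 0, and limma with adjustment gave 0. Peg10 was 11.0 points lower in EBs with an adjusted p of 0.100, with N9 at -23.9 points and N5 at 1.80. Without N5 at t=0 the count was 1.

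Clones were then set against the wild type at each stage, where the single wild-type library must be taken to vary like the clones. At t=0, 0 of 10 members passed, against 0.541% of all ends (edgeR unadjusted 3, limma unadjusted 1, limma adjusted 0). Zdbf2 of the clones stood 27.0 points below the wild type at t=0 with an adjusted p of 0.136. At day 10, 1 of 10 members was lower in the clones, against 0.0148% of all ends. It was Zdbf2, at 18.4% ± 9.20 in the clones (SD, n = 2) and 57.8% in the wild type, 39.5 points lower (edgeR adjusted p = 0.0482). That call lies next to the threshold and held under 13 of 20 alternatives. Its log2 odds were -2.67 as reported. They were -2.05 without N9 at day 10, -2.33 with the second wild-type column only and -2.67 without N5 EBs or without N9 EBs, and none of these 4 fits passed the threshold. In the 250 bases printed for Zdbf2 the clones held 2.7% to 25.8% methylated calls over the 4 stages, against 46.2%, 76.0%, 40.5% and 20.9% in the wild type, on 25 to 67 calls a library.

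At day 25, 1 of 10 members was lower in the clones than in the wild type, against 10.2% of all ends. Airn stood at 17.5% ± 1.21 in the clones (SD, n = 2) and 35.9% in the wild type, 18.4 points lower (edgeR adjusted p = 0.032). The wild-type value joins columns of very different level, 2.70% on 74 calls in the first and 52.7% on 146 calls in the second. With both columns the log2 odds difference was -1.40. With the first column alone it was 2.90 (edgeR adjusted p = 0.0254), that is, higher in the clones. Without N5 or N9 at day 25 the call was lost, at log2 odds of -1.31 and -1.48. Peg3 stood 11.3 points lower in the clones (adjusted p = 0.0704) and Mest 20.1 points lower (0.0961), neither past the threshold. In EBs 0 of 10 members passed, against 0.0886% of all ends (edgeR unadjusted 2, limma unadjusted 0, limma adjusted 0).

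Whether the clones changed differently from the wild type was tested as an interaction. From t=0 to day 10 and from t=0 to day 25, 0 of 10 members passed, against 0.0344% and 2.11% of all ends. At an unadjusted p under 0.05, edgeR gave 3 and 4 members and limma 0 and 1, and limma with adjustment gave 0 in both. From day 25 to EBs 2 of 10 members passed, against 6.09% of all ends. Gnas rose 10.0 points in N5 and 6.69 in N9, while the wild type had 4.44% in EBs and 5.47% at day 25, with overlapping 95% Wilson intervals, a difference in log2 odds change of 2.75 ± 0.77 (SE, edgeR adjusted p = 0.0311). The Peg10 differences were 3.55 points (N5) and -7.89 points (N9), while the wild type had 22.5% in EBs and 5.26% at day 25 (-2.65 ± 0.80, adjusted p = 0.0426). Both calls were lost without N9 at day 25, at log2 odds of 2.34 for Gnas and -2.45 for Peg10. Gnas also lost it without N5 EBs (2.36), and Peg10 without N5 at day 25 (-2.89) and without N9 EBs (-2.15). With the other end of the gene the Peg10 difference turned to 2.12 (adjusted p = 0.0325), and with the first wild-type column alone the Gnas difference was 1.4, not past the threshold. The wild-type columns went opposite ways at Gnas, the first with 7.59% in EBs and 3.87% at day 25 and the second with 2.91% in EBs and 6.65% at day 25.

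Since the gene-end rule misses some control regions, CpG-dense stretches were found over the whole genome without using methylation values, as runs of 500 bp with at least 20 CpGs. The 10 loci, with their partner genes, held 41 of them, all tested among 39275 stretches. After the levels of these stretches had been seen, 12 were assigned to the known control regions from textbook knowledge of the loci. No test is attached to that choice. Those at Peg3, Peg10, Plagl1, Nnat, Airn and Zdbf2 overlap the gene-end windows of these genes. They share CpGs with the windows and are not separate evidence. In these 12 stretches 14 of 144 values (9.72%) lay between 30% and 70%, against 23.2% of the values of all tested stretches, and 0 of 12 lay there in every library. The 12 held 42 to 387 CpGs each, and the background was not matched for CpG number. Among gene ends, a minimum of 50 CpGs moved the background from 19% to 2.78%. Limits of 25% and 75%, applied to these 12 after values had been seen, put 30 of 144 (20.8%) in the band, against 29.8% of the values of all tested stretches. Most of them were lower than an intermediate level in every cell line, the wild type included.

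The island inside Grb10 (chr11:12025124-12026986, 161 CpGs) read 14.5%, 7.34%, 5.09% and 13.7% in N5 and 12.3%, 8.18%, 5.35% and 10.4% in N9 (t=0, day 10, day 25, EBs), and 9.19%, 13.6%, 6.01% and 16.8% in the wild type. It was higher than the Grb10 gene end in each library and under 17% throughout. The internal start of Mest (chr6:30736675-30738921, 120 CpGs) read 22.0%, 13.3%, 14.3% and 13.5% in N5 and 14.4%, 6.54%, 8.82% and 18% in N9 (t=0, day 10, day 25, EBs), and 36.1%, 13.2%, 14.5% and 16.1% in the wild type. Only the wild type at t=0 passed 30% there. The island inside Impact (chr18:12972685-12974748, 134 CpGs) read 30.6%, 18.7%, 7.56% and 30% in N5 and 13.4%, 12.4%, 9.66% and 8.73% in N9 (t=0, day 10, day 25, EBs), and 11.0%, 20.5%, 9.87% and 7.51% in the wild type. N5 at t=0 and as EBs stood apart from the rest.

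In the Gnas locus the 3 control-region stretches had different levels. The Nespas and Gnasxl region held a first stretch (chr2:174295026-174296763, 81 CpGs) at 24.6% ± 4.88 in the clones at t=0, 10.2% ± 1.84 at day 25 and 29.3% ± 10.4 in EBs (SD, n = 2), and at 21.9%, 24.7% and 43.7% in the wild type. The second (chr2:174296953-174301062, 256 CpGs) stood at 16.9%, 10.8% and 20.6% in the clones at these stages and at 19.1%, 36.5% and 24.4% in the wild type. The stretch over exon 1A and the Gnas start (chr2:174326801-174331538, 387 CpGs) stood at 7.50%, 3.51% and 9.66% in the clones and at 10.2%, 6.01% and 10.9% in the wild type. In it, the CpGs within 500 bp of the start at 174327749 read 3.56% to 14.6% over the 12 libraries, and those around the start at 174330006 read 0% to 1.06%.

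Between t=0 and day 10, 0 of 41 stretches passed, against 0.188% of all stretches (edgeR unadjusted 7, limma unadjusted 3, limma adjusted 0), and 1 passed without N9 at day 10. From t=0 to day 25, 14 of 41 fell in the clones, against 33.3% of all stretches that fell, and 6 of the 14 were control-region stretches. These were the shared start of Peg3 and Usp29 (15.3 points lower, edgeR adjusted p = 0.00558), the Grb10 island (8.20, 0.0126), the first Nespas and Gnasxl stretch (14.4, 0.0179), the exon 1A stretch (3.99, 0.0312), the start of Peg10 and Sgce (11.9, 0.0316) and the Impact island (13.4, 0.044). The starts of Airn, Nnat, Plagl1 and Zdbf2, the internal start of Mest and the second Nespas and Gnasxl stretch did not pass. Their differences lay between -9.22 points (Airn, edgeR adjusted p = 0.108) and 3.9 points (Zdbf2). The count was 4 and 7 without N5 or N9 at t=0, 9 without N5 and 0 without N9 at day 25, and limma with adjustment gave 0, so this count depended on single libraries.

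From day 25 to EBs, 28 of 41 stretches rose in the clones, against 75.1% of all stretches that rose. Of the 12 control-region stretches 5 rose, with a median difference of 7.46 points, and of the other 29 stretches of the loci 23 rose, with a median of 18.8 points. The difference between those groups was not tested. The 5 were the first Nespas and Gnasxl stretch (19.1 points, edgeR adjusted p = 0.00129), the exon 1A stretch (6.15, 0.00141), the start of Peg3 and Usp29 (10.4, 0.00812), the Grb10 island (6.82, 0.00834) and the second Nespas and Gnasxl stretch (9.81, 0.0142). The starts of Peg10, Plagl1, Nnat, Airn and Zdbf2, the internal start of Mest and the Impact island did not pass, with differences between -0.914 points (Zdbf2) and 10.8 points (Impact). The other stretches include strongly methylated ones, such as the stretch inside Peg10 (chr6:4754728-4755795, 47 CpGs), which stood at 93.5% in EBs of the clones and 56.5% at day 25 and was named after its values were seen.

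**Figure D3:**
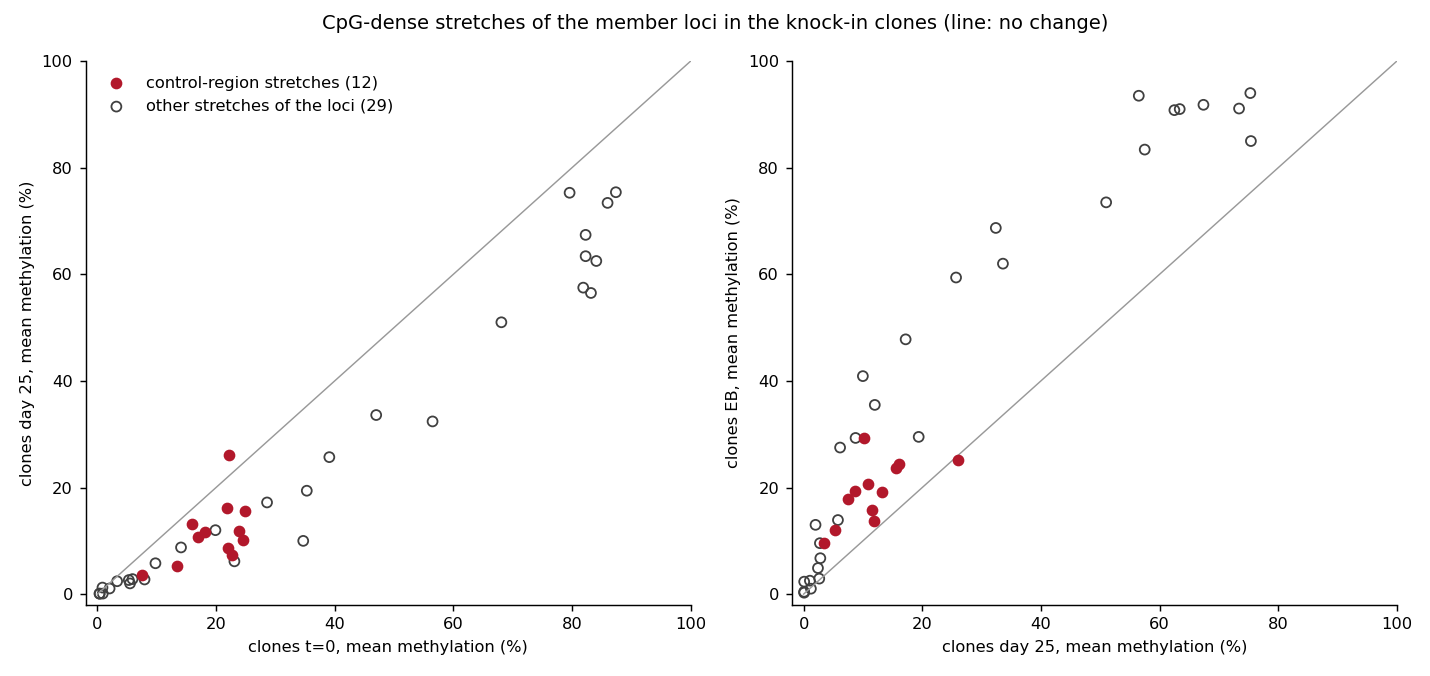
Mean methylation (percent) of the 41 CpG-dense stretches of the member loci in the knock-in clones, day 25 against t=0 (left) and EBs against day 25 (right), with the 12 control-region stretches filled and the other 29 open. All filled points lie under 30%, while 8 open points lie above 75% at t=0, and the rise to EBs had a median of 7.46 points for filled and 18.8 points for open points, a difference that was not tested.

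Profiles in bins of 500 bp placed the Peg3 and Usp29 stretch in a dip. In the clones the bin centred 3750 bp from its middle stood at 77.1% at t=0, 70.5% at day 25 and 83.4% in EBs, and the bin at -750 bp at 18.6%, 4.06% and 16%. Around the first Gnas stretch no such rim was seen on its left, where the bin at -3750 bp stood at 24.9% at t=0, 5.51% at day 25 and 42.5% in EBs.

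**Figure D4:**
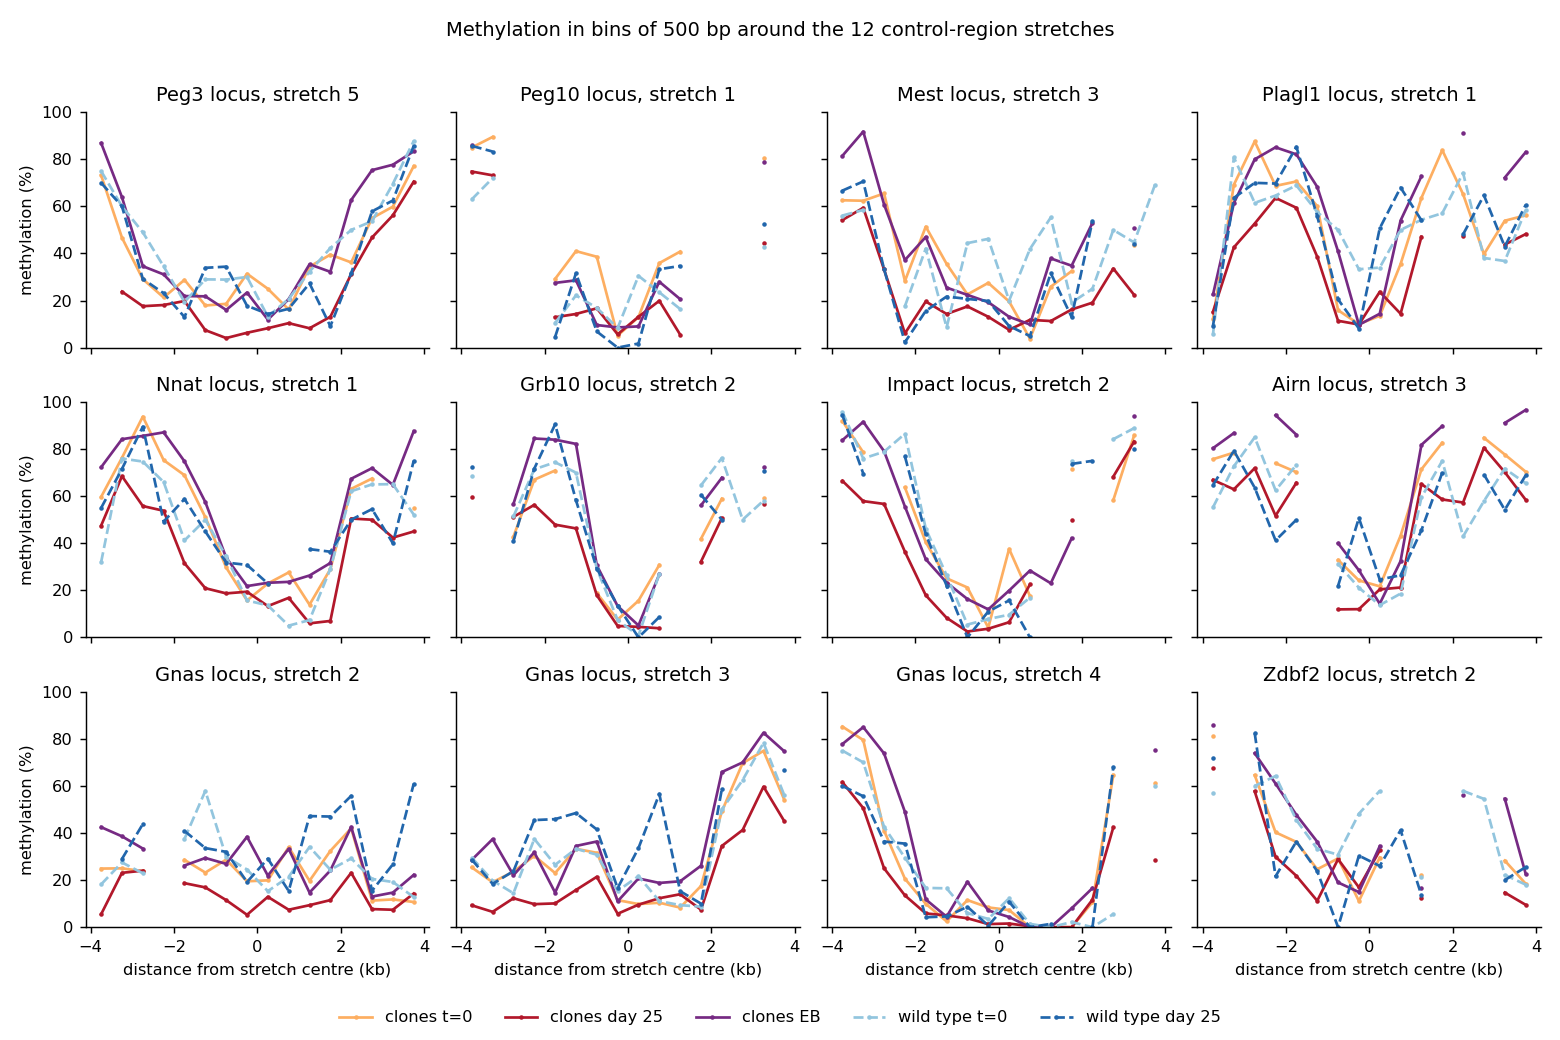
Methylation (percent, y axis) in bins of 500 bp by distance from the centre of each of the 12 control-region stretches (kb, x axis), for the clones at t=0, day 25 and as EBs (solid) and the wild type at t=0 and day 25 (dashed). Bins with too few calls are left out, and in the Peg3 panel the clone line at day 25 drops to 4.06% at -750 bp.

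At single CpGs with at least 8 calls in the clones together, the Peg3 and Usp29 stretch held no CpG above 80% at any stage of the clones. Its median CpG stood at 25.0% at t=0 (81 CpGs, quartiles 13.3% and 33.3%), 14.3% at day 10, 8.33% at day 25 and 16.7% in EBs. At day 25, 23 of 87 CpGs were at 0%, against 0 of 81 at t=0. The CpGs that reached 8 calls were not the same set at each stage. N5 also had 8.74 calls per CpG at day 25 and 5.42 at t=0, so these counts are a description only. The minimum of 8 calls was set after values had been seen. In the Nnat stretch the median CpG was 20.0%, 10.0%, 14.3% and 23.9% at the 4 stages.

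Between t=0 and EBs 1 of 41 stretches passed in the clones, against 7.8% of all stretches that were higher. It was a strongly methylated stretch in the Gnas locus (starting at chr2 position 174344933, picked out after its values were seen), 14.4 points higher in EBs (edgeR adjusted p = 0.0251), and the call was lost whenever 1 of the 4 libraries was left out. In EBs and at t=0 and day 10, 0 of 41 stretches differed between clones and wild type, against 0.14%, 0.629% and 0.0815% of all stretches. At an unadjusted p under 0.05 edgeR gave 3, 4 and 5 and limma 1, 2 and 3, and limma with adjustment gave 0 each time. At day 10 the fit that pairs the clones across stages as a replicate block called 1, as did the fit without N5 at day 10. At day 25, 6 of 41 were lower in the clones, against 7.82% of all stretches that were lower. Among them were the second Nespas and Gnasxl stretch (25.7 points lower, edgeR adjusted p = 0.00463) and the start of Peg3 and Usp29 (15.7 points lower, 0.0314). The stretch at the Airn start stood 12.5 points lower and did not pass (edgeR adjusted p = 0.175). The remaining 4 of the 6 were picked out after their values were seen. They were a second Nnat stretch (30.8 points lower, edgeR adjusted p = 0.00397), the Nesp start (6.29, 0.0267) and a stretch inside Peg3 (24.5, 0.0437). The last was the stretch at the Igf2r gene end, which lies within the span of Airn (11.7, 0.0462). Without N9 at day 25 the count was 2, and limma with adjustment gave 0. Of the interactions, t=0 to day 10 and t=0 to day 25 gave 0 of 41, against 0% and 0.204% of all stretches (edgeR unadjusted 6 and 8, limma unadjusted 2 and 4, limma adjusted 0 in both), and the fits without N5 or N9 at day 10 gave 1 for t=0 to day 25. Day 25 to EBs gave 1, against 4.09% of all stretches with a larger rise in the clones. It was the Nesp start, at log2 odds of 2.69 (edgeR adjusted p = 0.0314), with a count of 0 without N9 at day 25 or N5 EBs and 2 without N5 or N9 at day 10.

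The clones differed from each other at single members. Their 95% Wilson intervals did not overlap at 3 of 10 members at t=0, at day 10 and at day 25, and at 7 of 10 in EBs. N5 was the higher clone in EBs at 7 members, which are not the same 7. Peg3 had intervals apart with N9 higher (12.1% in N5 and 25.8% in N9). Airn was higher in N5 with overlapping intervals (36.7% and 32.8%). Among all tested ends, 6.96%, 8.1%, 6.04% and 9.52% had intervals apart (t=0, day 10, day 25, EBs). Intervals narrow with the number of calls, and the ends were not matched for it. The largest gaps were at Mest at day 10 (48.2% in N5 and 25.6% in N9), Impact at t=0 (35.1% in N5 and 56.3% in N9), Mest in EBs (56.9% in N5 and 38.5% in N9) and Peg10 at t=0 (13.5% in N5 and 31.3% in N9). Of the 40 pairs of clone values 21 differed at p under 0.05 by Fisher's exact test on calls, as did 18 of 40 pairs of wild-type columns. Over all tested ends and the 4 stages, 18.2% of clone pairs and 13.8% of column pairs did. Neighbouring CpGs of a read are not independent calls, so intervals and Fisher tests cover counting error only and are too narrow.

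Partner genes and other imprinted loci gave the setting. Of the 9 partner genes tested, 5 fell from t=0 to day 25 in the clones and 7 rose from day 25 to EBs, with median differences of -10 and 11.3 points, against -3.9 and 7.22 for all ends, of which 40.2% fell and 74.6% rose. Usp29 and Sgce overlap the windows of Peg3 and Peg10 and are not separate evidence. None of the gene lists was matched to all ends for starting level. Of 12 other maternally methylated loci, 4 fell and 7 rose over the same intervals (medians -9.29 and 11 points), against the same 40.2% and 74.6% of all ends. Kcnq1ot1, the noncoding RNA of the Cdkn1c domain, stood at 24.6% ± 10.6 in the clones at t=0, 10.9% ± 2.42 at day 25 and 19.8% ± 5.92 in EBs (SD, n = 2), and at 45.5%, 52.4% and 64.7% in the wild type. Of 4 paternally methylated loci, 1 fell to day 25 (Dlk1) and 3 rose to EBs (medians -6.55 and 4.37 points), again beside 40.2% and 74.6%. H19, whose upstream region is methylated on the father's copy, stood at 71.1% ± 2.15 in the clones at t=0 and 37.2% in the wild type.

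Among 6 genes that keep imprints, 4 fell from t=0 to day 25 at their gene ends and 5 rose to EBs (medians -6.51 and 18.2 points), where 40.2% and 74.6% of all ends did so. Zfp57, whose protein binds methylated TGCCGC, stood in the clones at 41.2% ± 5.03 at t=0, 12.5% ± 3.95 at day 25 and 46.6% ± 8.48 in EBs (SD, n = 2). The wild type had 35.1%, 37.7% and 30.3% at these stages. Dppa3, which shields the maternal genome in the zygote, stood in the clones at 15.4% ± 1.5 at t=0, 5.51% ± 2.95 at day 25 and 29.2% ± 0.409 in EBs. Its wild-type values were 24%, 22% and 13.3%. These are methylation levels of gene ends, and no expression was measured here. The 5 gene ends of at least 60 CpGs whose 12 values lay closest to the members' median were Sirt7, Kremen2, Gdf15, Ccdc183 and Bsn, at root mean square differences of 3.21 to 3.96 points, out of 10908.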

How the data were processed

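Members and gene lists were chosen with earlier results of these data known. Per the labels' protocols, DNA was oxidised, bisulfite-converted and sequenced in 12 libraries. BWA, Picard 1.91 and mm10 appear in the submitters' processing notes; how calls were made is not stated there. The authors deposited whole-number counts of methylated and of all calls per CpG, with no normalization. Per the file headers the wild type has a pair of columns per stage, whose calls were summed.

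Windows needed 5 CpGs and, per library, 10 calls. They were tested with edgeR 4.0.16 in 8 groups, with 4 residual degrees of freedom and Benjamini-Hochberg adjustment over all windows of a kind. limma 3.58.1 on logit values (0.5 added to both counts) was an alternative, beside coverage minimums, window sizes, the other gene end, single wild-type columns, each clone library left out, and a replicate block with or without a flow cell term. The block pairs samples of the same clone, as the labels name them; clone deviations correlated by 0.000676 to 0.0333 between stages over gene ends. All 10 members are named with their values. Also named are stretches at a member or partner gene end or in the 30% to 70% band in at least 6 libraries, list genes among the 4 lowest p, and the 5 most alike ends. The fits were tested on simulated data, where the size of a change was recovered. At the spread of the data most changes were not called, also ones about as large as the largest member change to day 25. In the simulated data few windows differed between the stages, whereas 40.2% of all measured ends fell from t=0 to day 25 in the clones. How often a change would be called in the measured t=0 to day 25 comparison was therefore not tested. Promoter sequences are RefSeq's (GRCm38.p6).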

Additional observations from a re-analysis of the deposited data

Results flagged for a closer look

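From day 25 to EBs clones and wild type changed unequally at 2 gene ends and 1 stretch, by edgeR's interaction test. Gnas differed by 2.75 in log2 odds (adjusted p = 0.0311), with a higher level in EBs than at day 25 in both clones. The wild type had 4.44% in EBs and 5.47% at day 25, with overlapping 95% intervals, and its columns moved in opposite directions. The stretch at the Nesp start of the Gnas locus, which overlaps the Gnas window, differed by 2.69 (0.0314). Peg10 differed by -2.65 (0.0426), with a rise in the wild type that neither clone matched in size. With limma none of the 3 passed, and the part of single libraries is given beside the values above.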

How the results depend on the processing

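Of 295 values of called members under alternatives, 240 kept direction and call, 53 lost the call and 2 reversed. The reversals were Airn in clones against wild type at day 25 with the first wild-type column (2.90 in log2 odds) and Peg10 in the day 25 to EB interaction with the other gene end (2.12). For member gene ends, limma gave 2 calls for day 25 against t=0 (5 as reported), 3 for EBs against day 25 (6), and 0 for clones against wild type at day 10 (1) and day 25 (1) and for the day 25 to EB interaction (2). Windows of 2000 bp gave 8 for day 25 against t=0, 4 for clones against wild type at day 25, 1 for the t=0 to day 25 interaction (0) and 1 for the day 25 to EB interaction, and windows of 500 bp gave 1 for EBs against t=0 (0), 2 for clones against wild type at t=0 (0) and 0 for the day 25 to EB interaction. The other gene end gave 10 for EBs against day 25, 1 for EBs against t=0, 0 and 3 for clones against wild type at day 10 and day 25, and 1 for the day 25 to EB interaction, and the RefSeq start gave 2 and 1 for the last pair. CpGs called in all 12 libraries gave 0 and 2 for clones against wild type at day 10 and day 25. The first wild-type column gave 2 at day 25 and 0 for the day 25 to EB interaction, and the second gave 0 at day 10 and 2 for the t=0 to day 25 interaction. Leaving out each clone library gave 2 to 5 for day 25 against t=0, 3 to 6 for EBs against day 25, 0 to 1 for EBs against t=0 and for clones against wild type at day 10 and day 25, and 0 to 2 for the day 25 to EB interaction. Limits of 25% and 75% put 52 member values in the band instead of 33, with 1 of 10 members there in every library instead of 0.

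For the 41 stretches, limma gave 0 for day 25 against t=0 (14), EBs against t=0 (1), clones against wild type at day 25 (6) and the day 25 to EB interaction (1). At least 30 CpGs in 500 bp gave 5 for day 25 against t=0, 10 for EBs against day 25 (28), 0 for EBs against t=0 and 2 for the day 25 to EB interaction. CpGs called in all 12 libraries gave 2 for EBs against t=0 and 1 for the t=0 to day 25 interaction (0), and at least 30 calls gave 1 and 2 for the interactions to day 25 and to EBs. The first wild-type column gave 1 for clones against wild type at t=0 (0) and at day 10 (0), 2 for the t=0 to day 25 interaction and 0 for the day 25 to EB interaction, where the second gave 3. Leaving out each clone library gave 0 to 1 for day 10 against t=0, 0 to 16 for day 25 against t=0, 23 to 29 for EBs against day 25, 0 to 1 for EBs against t=0, for clones against wild type at day 10 and for the t=0 to day 25 interaction, 2 to 6 for clones against wild type at day 25, and 0 to 2 for the day 25 to EB interaction. Of the 144 values of the control-region stretches, limits of 25% and 75% put 30 in the band and limits of 35% and 65% put 8, instead of 14, alternatives chosen after seeing the data. The cause of these shifts was not tested.

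With the replicate block, which pairs the clones across stages, the member counts for day 25 against t=0 and EBs against day 25 were 5 and 6 as without it, and no other member count changed. For the stretches the block gave 1 for clones against wild type at day 10, with or without the flow cell term, and with that term 1 for the t=0 to day 25 and 3 for the day 25 to EB interaction. At 4.7 to 8.74 calls per CpG single CpGs cannot be compared between libraries.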
